A study of Mus musculus with 6 samples.

Results

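The genes described here are the interstitial collagens and the stromal matrix genes measured in corneal epithelium of mice with and without Rela. They were chosen by name. Every gene whose symbol is a collagen chain was taken, leaving out the chains of types 4, 7 and 17, and 14 further genes were added: Dcn, Lum, Bgn, Fmod, Fn1, Postn, Sparc, Tnc, Vcan, Fbn1, Fbn2, Eln, Vim and Acta2. This gave 46 genes (32 collagen chains and 14 others) of the 17866 in the table.

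The samples were the separated corneal epithelium of C57BL/6 mice at 6 months of age, profiled by bulk RNA-seq as independent biological samples. The labels gave the genotype of 3 libraries as WT (wild type) and of 3 as Rela-/- (KO). In the study the KO mice were Krt14-Cre; Rela f/f, in which Cre under the Krt14 promoter deletes a floxed Rela allele, and Rela encodes the p65 subunit of NF-κB. This Cre acts in K14-expressing cells of the cornea, limbus and conjunctiva and in other K14-expressing epithelia such as skin, so it is not restricted to the corneal epithelium. Rela itself had WT counts of 1871, 1844 and 1855 and KO counts of 318, 223 and 313. The KO level was 16.5% of WT (log2 fold change -2.60, SE 0.141, adjusted p = 2.74e-06 by edgeR's quasi-likelihood test with Benjamini-Hochberg adjustment over all genes tested, as for every adjusted p given here). Library totals lay between 20158404 and 20880347 counts, so that 3 counts corresponded to between 0.144 and 0.149 CPM (counts scaled by library total and normalization factor). Limits and intervals from counts cover counting error only, since PCR copies were not told apart from molecules. The epithelial keratin genes Krt12 and Krt5 were abundant in all 6 libraries, with at least 109690 and 203542.9 counts. Their KO levels were 19.5% and 39.1% of WT, and Krt14 was 17.7-fold higher in KO. WT replicate 2 stood apart in Krt14, with 25395.3 counts against 5207 and 6712.1 in the other WT libraries.

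Interstitial collagens form the fibrils, filaments and networks of connective tissue. In the cornea the regularly spaced fibrils of the stroma are built mainly from type I and type V collagen, and small leucine-rich proteoglycans such as lumican and decorin control their diameter and spacing. Most of these genes are typically made by keratocytes, the resident stromal fibroblasts, while a few, among them fibronectin and collagens XII and XVIII, are also made by epithelia next to a basement membrane.

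The matrix transcripts differed in kind between the WT epithelium and the KO epithelium, which the paper describes as epidermal-like at the central cornea. In WT, Fn1 (fibronectin, the adhesive glycoprotein of provisional matrix) held 88.0%, 76.0% and 82.1% of the summed CPM of the 46 genes, and in KO it held 12.9%, 13.7% and 14.2%. In KO the highest mean CPM, which is not corrected for length, was that of Col18a1 (the chain of collagen XVIII, a heparan sulfate proteoglycan of basement membranes) and of Tnc (tenascin C, a matricellular protein of healing wounds), followed by Fn1 and Sparc. The sum over the 46 genes was 645.2, 440.2 and 469.1 CPM in WT and 275.1, 271.1 and 291.9 CPM in KO, and every KO library lay below every WT library. Without Fn1 the order turned: the sums were 77.69, 105.7 and 84.14 CPM in WT and 239.5, 233.9 and 250.6 CPM in KO. In bulk samples, fewer cells of a type and less RNA per cell cannot be told apart.

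**Figure D1:**
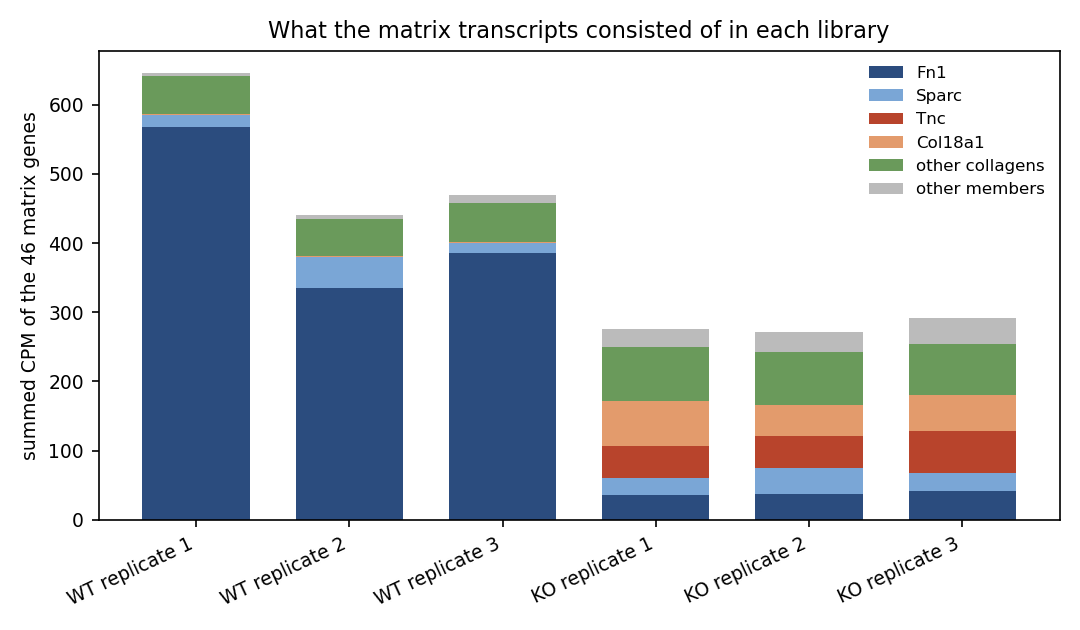
Stacked bars of summed CPM (vertical axis, linear from 0) of the 46 genes in each of the 6 libraries, divided into Fn1, Sparc, Tnc, Col18a1, the other collagens and the other members. The dark Fn1 block takes between 335.0 and 568.0 CPM in WT and between 35.6 and 41.4 CPM in KO, where Tnc and Col18a1 form visible blocks.

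Of the 46 genes, 22 had enough counts for the test, and 24 did not. Of those 22, 13 were higher in KO and 7 lower at an adjusted p of 0.05, and Sparc and Col5a2 were not called. Over all 13305 genes tested, 31.8% were higher and 30.2% lower. At the threshold of the study's methods (adjusted p of 0.001 or less and a fold change of at least 2) 7 of the 22 were higher and 2 lower, where 11.6% of all genes tested were higher and 8.24% lower. All 3 KO libraries lay above all 3 WT libraries for 13 of the 22 and below them for 7, against 34.7% and 33.9% of all genes tested. The median log2 fold change was 1.85 over the 22 and 0.01 over all genes tested. These counts lean on the filter: Col1a2, Col5a1, Bgn and Dcn reached its minimum of 0.482 CPM in no WT library, so they could enter only by being higher in KO. Likewise Col9a3 reached it in no KO library and could enter only by being higher in WT, and Col1a1 and Tnc reached it in 1 WT library each. Among the 12 members with a mean count of at least 50 over the 6 libraries, 7 were higher and 4 lower. With that filter 7100 of all 11385 genes tested were called, and 50.6% of these calls were higher. This mean also lets genes in through the group where they are high. Tnc, Vim, Col18a1 and Acta2 had WT means of 8.333, 19.42, 26.67 and 39.33 counts, and Col26a1 had a KO mean of 47.27.

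**Figure D2:**
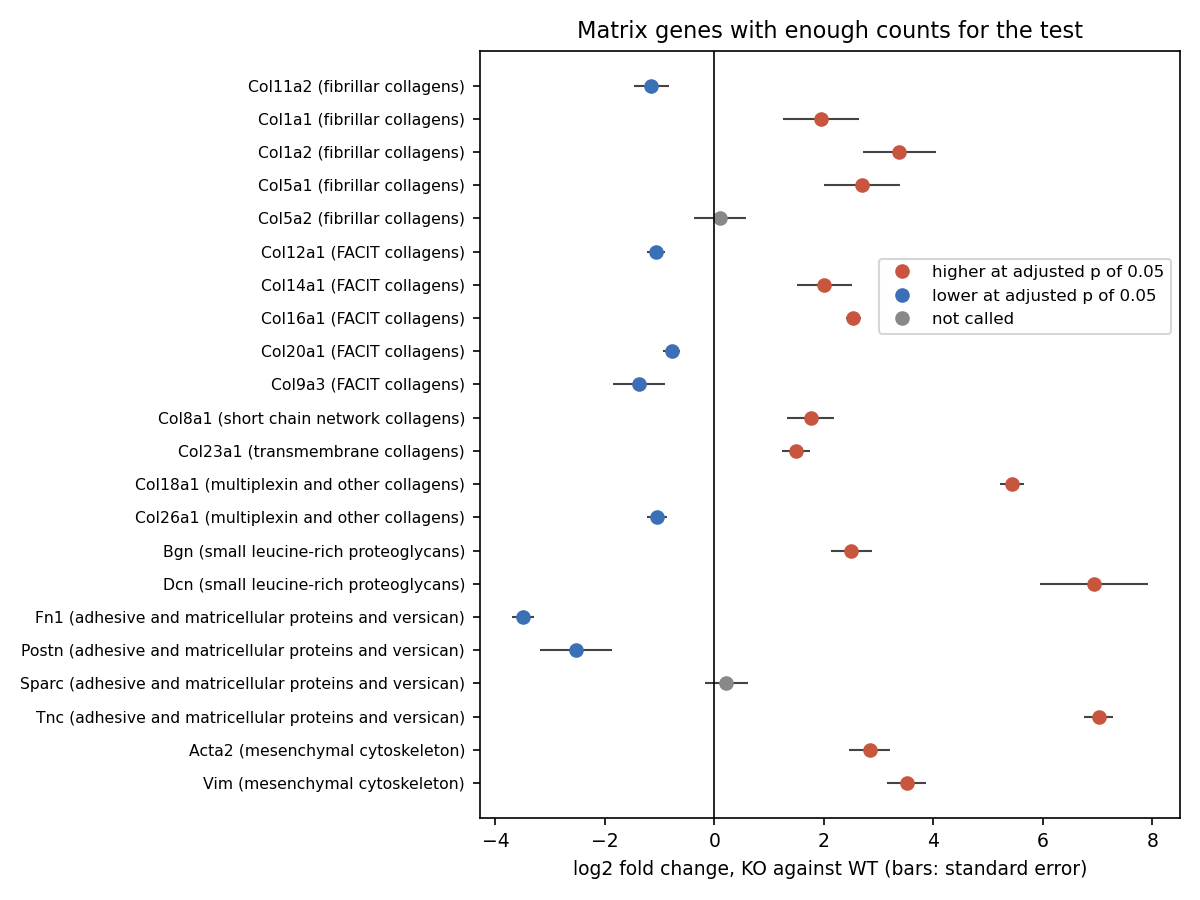
Log2 fold change of KO against WT (horizontal axis) with its standard error for the 22 testable members, grouped by role on the vertical axis. Red points were higher, blue points lower and grey points not called at an adjusted p of 0.05; the values run from -3.50 for Fn1 to 7.02 for Tnc.

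Fn1 (gene 14268, GRCm38 chr1:71585473-71653234) had WT counts of 12390, 7191 and 8130 and KO counts of 702, 741 and 830. The lowest WT library held more than the highest KO library by a wide margin. Its level was 429 ± 123 CPM (SD, n = 3) in WT and 38 ± 3 CPM in KO, which left 8.87% (log2 fold change -3.50, SE 0.205, adjusted p = 4.03e-06). Postn (periostin, which binds collagen I and fibronectin) had WT counts of 39, 34 and 151 and KO counts of 7, 14 and 15. WT replicate 3 was far above the other WT libraries, and the groups did not overlap (log2 fold change -2.53, SE 0.659, adjusted p = 0.00973).

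Tnc (gene 21923, GRCm38 chr4:63959785-64149925) was nearly silent in WT, with 5, 7 and 13 counts, and had 896, 931 and 1235 counts in KO. It was 130-fold higher in KO (51.2 ± 8.97 against 0.39 ± 0.201 CPM, log2 fold change 7.02, SE 0.27, adjusted p = 5.75e-07), with no overlap. Sparc (osteonectin, a collagen-binding matricellular protein) had WT counts of 372, 962 and 305 and KO counts of 494, 755 and 516. The groups overlapped and no difference was called (log2 fold change 0.22, SE 0.398, adjusted p = 0.658). WT replicate 2, the library that stood apart in Krt14, was the highest of the 6 for Sparc, and without it Sparc was higher in KO (log2 fold change 0.92, adjusted p = 0.0056). Leaving out any other library gave log2 fold changes from -0.0426 (without WT replicate 3) to 0.323 (without KO replicate 1) and no call. Vcan (versican, a large chondroitin sulfate proteoglycan) had too few counts for the test, with 4, 8 and 5 in WT and 9, 15 and 6 in KO.

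Col18a1 (gene 12822, GRCm38 chr10:77052178-77166530) had WT counts of 22, 34 and 24 and KO counts of 1285, 894 and 1031. All KO libraries lay far above the WT libraries, and the level rose 43.1-fold, from 1.24 ± 0.301 to 53.8 ± 10.3 CPM (log2 fold change 5.43, SE 0.217, adjusted p = 7.21e-07). Its share of the summed collagen CPM went from 1.81%, 2.93% and 1.97% in WT to 45.5%, 37.3% and 40.8% in KO. The 32 collagen chains together gave 55.61, 53.96 and 57.76 CPM in WT and 143.0, 120.3 and 125.9 CPM in KO. Without Col18a1 these sums were 54.6, 52.38 and 56.63 CPM in WT and 77.94, 75.44 and 74.49 CPM in KO, so the other chains still summed higher in every KO library. Col15a1, the other multiplexin and a close relative of Col18a1, had WT counts of 6, 5 and 7 and KO counts of 6, 4 and 7. Col26a1, a secreted chain first found in testis and ovary, had WT counts of 117.2, 95.7 and 102.2 and KO counts of 42.5, 50.4 and 49, with no overlap (log2 fold change -1.05, SE 0.185, adjusted p = 0.00135).

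Promoter sequence was examined because the deleted gene encodes a DNA-binding subunit. RefSeq windows (build GRCm38.p6) of 300 bases, from 250 before the annotated start on, were matched for 34 of the 46 genes. They were searched on both strands, overlaps included, for the NF-κB consensus, for the AP-1 motif TGANTCA and for TATAAA. The NF-κB consensus stood in 6 of the 38 windows of these genes (Col27a1, Col6a2, Col6a4, Col9a2 and Vim) and in 8.46% of all 32851 windows. TGANTCA stood in 1 of the 38 (Col6a1) and in 7.81% of all windows, and TATAAA in 7 of the 38 (Col10a1, Col11a2, Col3a1, Postn, Tnc and Vim) and in 13.6% of all windows. A match is only a description of the letters. The windows of Tnc, Col18a1, Acta2 and Vim, the 4 that follow Sparc in the FPKM order of KO, are shown, chosen after their values were seen, with every match to the 3 motifs in capitals. Tnc has windows at 2 starts, which overlap and hold the same TATAAA at position -205 and -126 from each start. Both Col18a1 windows and that of Acta2 hold none of the 3 motifs. Vim holds TATAAA at -32 and the NF-κB consensus at -223 and, as overlapping matches, at -142 and -141.
Tnc, chr4:64046887-64047186, minus strand: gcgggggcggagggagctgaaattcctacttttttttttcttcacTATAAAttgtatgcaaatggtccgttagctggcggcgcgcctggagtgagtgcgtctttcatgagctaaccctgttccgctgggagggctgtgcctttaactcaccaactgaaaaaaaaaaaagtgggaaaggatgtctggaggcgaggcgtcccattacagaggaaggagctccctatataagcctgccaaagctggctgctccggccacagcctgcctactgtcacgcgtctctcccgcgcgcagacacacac
Tnc, chr4:64046966-64047265, minus strand: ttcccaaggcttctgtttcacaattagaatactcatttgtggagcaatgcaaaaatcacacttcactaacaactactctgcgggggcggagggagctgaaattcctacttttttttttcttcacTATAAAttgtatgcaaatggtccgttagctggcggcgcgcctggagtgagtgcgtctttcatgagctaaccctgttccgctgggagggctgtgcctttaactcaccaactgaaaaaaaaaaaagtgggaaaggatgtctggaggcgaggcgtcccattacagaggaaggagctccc
Col18a1, chr10:77113656-77113955, minus strand: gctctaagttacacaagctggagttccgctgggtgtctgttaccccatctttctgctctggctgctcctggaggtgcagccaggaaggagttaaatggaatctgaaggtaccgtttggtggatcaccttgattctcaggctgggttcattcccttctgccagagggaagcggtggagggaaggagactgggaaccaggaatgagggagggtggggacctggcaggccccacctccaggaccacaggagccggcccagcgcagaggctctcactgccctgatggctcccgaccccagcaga
Col18a1, chr10:77166481-77166780, minus strand: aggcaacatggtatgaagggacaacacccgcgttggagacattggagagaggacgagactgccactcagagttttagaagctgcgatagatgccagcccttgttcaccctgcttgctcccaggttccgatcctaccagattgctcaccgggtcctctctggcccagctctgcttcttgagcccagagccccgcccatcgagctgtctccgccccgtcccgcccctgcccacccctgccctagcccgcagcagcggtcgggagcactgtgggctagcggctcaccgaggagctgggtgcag
Acta2, chr19:34255324-34255623, minus strand: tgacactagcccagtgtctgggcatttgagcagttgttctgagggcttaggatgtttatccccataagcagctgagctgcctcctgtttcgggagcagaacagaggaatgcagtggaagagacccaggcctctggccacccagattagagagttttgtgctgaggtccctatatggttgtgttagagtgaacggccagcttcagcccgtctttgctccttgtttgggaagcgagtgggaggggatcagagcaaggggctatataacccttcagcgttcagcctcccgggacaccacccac
Vim, chr2:13574061-13574360, plus strand: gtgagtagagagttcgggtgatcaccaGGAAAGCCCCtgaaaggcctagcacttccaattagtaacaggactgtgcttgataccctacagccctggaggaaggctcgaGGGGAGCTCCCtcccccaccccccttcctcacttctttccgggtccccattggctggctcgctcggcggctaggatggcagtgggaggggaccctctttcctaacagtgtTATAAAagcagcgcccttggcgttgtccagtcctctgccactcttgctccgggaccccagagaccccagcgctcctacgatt

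Fibrillar collagens, the chains that build striated fibrils, were scarce in this epithelium. Type I collagen, the main fibril of the stroma, was represented by a few counts in WT. Col1a1 had WT counts of 1, 26 and 8 and KO counts of 27, 49 and 51. The highest WT library came within 1 count of the lowest KO library, and in CPM the groups did not overlap (0.545 ± 0.599 against 2.12 ± 0.655 CPM, log2 fold change 1.95, SE 0.69, adjusted p = 0.036). This call was lost without WT replicate 1 (adjusted p = 0.0503), WT replicate 3 (0.097), KO replicate 2 (0.0856) or KO replicate 3 (0.0869). Its partner chain Col1a2 had WT counts of 0, 3 and 1 and KO counts of 10, 16 and 16 (log2 fold change 3.38, SE 0.664, adjusted p = 0.00236, ratio of normalized totals 11.3 with an exact 95% counting interval of 4.11 to 43.5). Per length, Col1a1 stood 2.44, 2.67 and 2.93 times above Col1a2 in FPKM in the KO libraries. In WT replicates 2 and 3 this ratio was 7.0 and 6.0. All these ratios rest on the few Col1a2 counts given above.

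Col3a1, the chain of type III collagen, had WT counts of 0, 1 and 1 and KO counts of 2, 19 and 19 and was not tested (ratio 21.6, interval 5.59 to 184). KO replicate 1 was low beside the other KO libraries. The chains of type V collagen, which nucleates corneal fibrils, gave 1 call between them. Col5a1 had WT counts of 0, 10 and 2 and KO counts of 22, 26 and 26 (log2 fold change 2.69, SE 0.697, adjusted p = 0.00939), while Col5a2 had WT counts of 6, 13 and 14 and KO counts of 6, 11 and 16 (log2 fold change 0.10, SE 0.477, adjusted p = 0.864). Whether the change of Col5a1 differed from that of Col5a2 was not tested. Col11a2, a chain of the type XI fibrils best known from cartilage, fell, with WT counts of 47, 56 and 46 and KO counts of 15, 16 and 31 (log2 fold change -1.15, SE 0.319, adjusted p = 0.0129). The remaining fibrillar chains had at most 6 counts in any library. Of these, Col27a1 had WT counts of 1, 0 and 0 and KO counts of 1, 6 and 4 (ratio 11.9, interval 1.72 to 511), and Col5a3 a ratio of 3.6 (0.926 to 20.3). Col2a1 had WT counts of 3, 4 and 4 and KO counts of 5, 2 and 1, and Col24a1 had at most 1 count in any library.

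**Figure D3:**
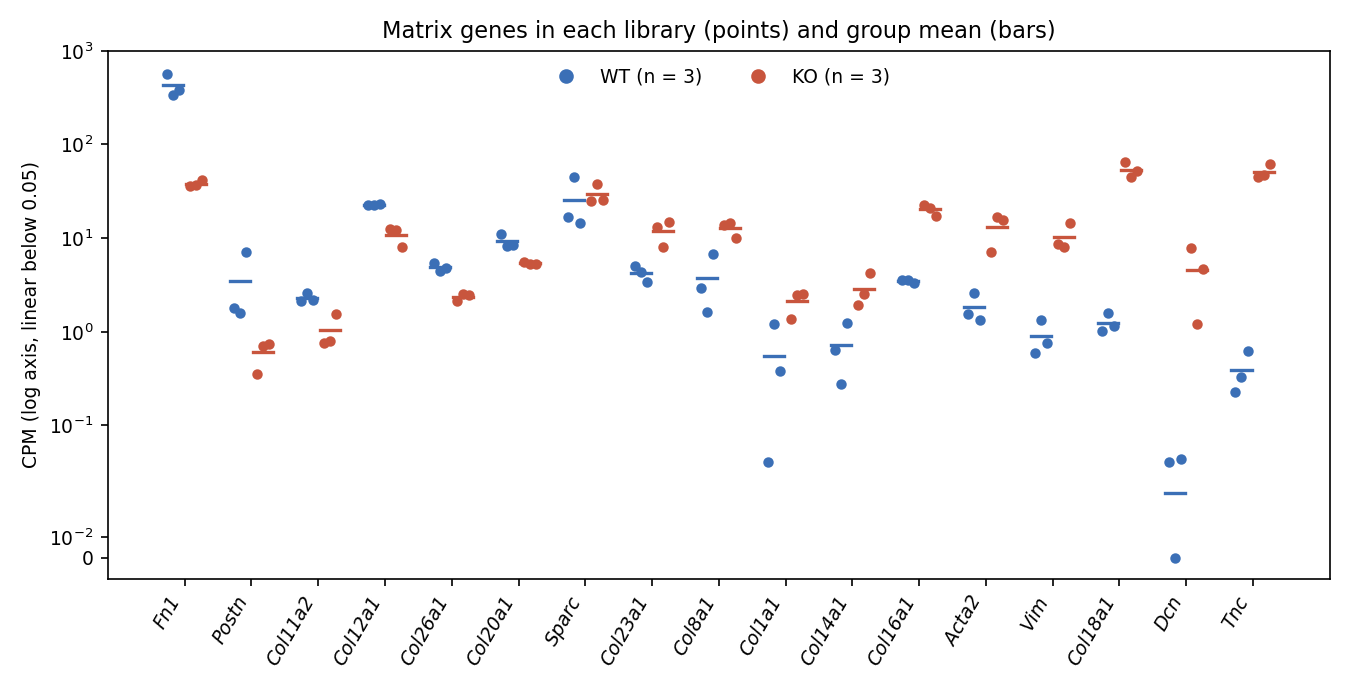
CPM of 17 members in each library on a log axis that is linear below 0.05, with blue points for the 3 WT and red points for the 3 KO libraries and short bars for group means. Genes are ordered from the largest fall (Fn1) to the largest rise (Tnc), and the groups overlap for Sparc alone.

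The FACIT collagens, which sit on the surface of fibrils and link them to other matrix, divided by direction. Col16a1, the chain of type XVI collagen, had WT counts of 77, 77 and 70 and KO counts of 440, 417 and 350. It rose 5.81-fold, from 3.47 ± 0.141 to 20.2 ± 2.5 CPM (log2 fold change 2.54, SE 0.141, adjusted p = 2.99e-06), with the groups far apart. Col14a1, the chain of collagen XIV, had WT counts of 14, 6 and 26 and KO counts of 38, 50 and 85, and every KO library was higher (log2 fold change 2.01, SE 0.497, adjusted p = 0.00765).

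Col12a1, a relative of Col14a1 that binds type I fibrils, moved the other way. It had nearly equal WT counts of 486, 482 and 489 and KO counts of 244, 243 and 161. Its level fell from 22.6 ± 0.475 to 10.9 ± 2.46 CPM (log2 fold change -1.06, SE 0.166, adjusted p = 0.000708), and its share of the summed collagen CPM went from 40.0%, 41.6% and 40.1% to 8.64%, 10.1% and 6.37%. Col20a1, the chain of collagen XX, fell too, with WT counts of 241, 178 and 180 and KO counts of 109, 106 and 107 (log2 fold change -0.78, SE 0.158, adjusted p = 0.0027). Col9a3, of the cartilage type IX collagen, had WT counts of 11, 23 and 14 and KO counts of 7.6, 3 and 6 (log2 fold change -1.37, SE 0.474, adjusted p = 0.0332). That call was lost without WT replicate 2 (adjusted p = 0.114), WT replicate 3 (0.0553), KO replicate 2 (0.104) or KO replicate 3 (0.0739) and with DESeq2 (0.0822). Col9a2 and Col19a1 had at most 1 count in any library.

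Among the short chain and transmembrane collagens, Col8a1, a network former of Descemet's membrane and vessel walls, had WT counts of 64, 35 and 144 and KO counts of 274, 289 and 203. WT spread widely, yet every KO library was higher (3.79 ± 2.7 against 12.8 ± 2.37 CPM, log2 fold change 1.76, SE 0.427, adjusted p = 0.00695). Its partner Col8a2 stayed at or under 2 counts in every library, and the network chain Col10a1 at or under 3. Col23a1, a transmembrane collagen of epithelial cells, had WT counts of 110.3, 93.1 and 72.2 and KO counts of 260, 160.3 and 296.4, with no overlap (log2 fold change 1.49, SE 0.251, adjusted p = 0.00104). Col25a1, another transmembrane chain, had no count in WT and 2, 1 and 1 in KO.

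None of the 7 beaded filament chains (type VI collagen and its relative Col28a1), which form the microfibrils around stromal cells, reached the counts needed for the test. Col6a1 had WT counts of 0, 1 and 1 and KO counts of 2, 5 and 8 (ratio 8.09, interval 1.88 to 72.9). Col6a2 had WT counts of 0, 0.8 and 1 and KO counts of 6, 4 and 4 (ratio 7.55, interval 1.73 to 68.4), and Col6a3 had WT counts of 0, 5 and 1 and KO counts of 7, 13 and 9. In these 3 chains, which join into 1 molecule, all KO libraries were above all WT libraries, but for Col6a1 this rests on 2 counts against 1. The share of 34.7% given above covers only genes that were tested, and these chains were not. Col6a4 had WT counts of 0, 2 and 8 and KO counts of 5, 4 and 22. Col6a5 was seen almost only in KO replicate 3, with 14 counts there, 1 in a WT library and none in the other 4. Col6a6 and Col28a1 had at most 2 and 4 counts in any library.

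The small leucine-rich proteoglycans, which bind collagen fibrils, separated by gene. Dcn (decorin) had WT counts of 1, 0 and 1 and KO counts of 153, 24 and 93. All KO libraries were above WT, but they spread widely among themselves, with KO replicate 2 lowest. The ratio of normalized totals was 146 (exact 95% counting interval 39.9 to 1210), and the fitted log2 fold change of 6.93 (SE 0.989, adjusted p = 0.00042) depends on the prior count because WT was almost empty. Bgn (biglycan) had WT counts of 3, 3 and 4 and KO counts of 16.4, 21.1 and 17.2 (log2 fold change 2.50, SE 0.376, adjusted p = 0.000568). Lum (lumican), one of the most abundant proteoglycans of the corneal stroma, had no count in WT and 2, 4 and 1 in KO. In FPKM, Lum stood at 0.05, 0.1 and 0.02 beside 3.91, 0.66 and 2.36 for Dcn in the same KO libraries. Fmod (fibromodulin) had WT counts of 7, 6 and 18 and KO counts of 11, 5 and 6, with overlap. The elastic fibre genes were scarce: Eln and Fbn1 had no count in WT and at most 3 in KO, and Fbn2 had WT counts of 4, 7 and 16 and KO counts of 3, 3 and 5.

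Both cytoskeletal genes of the list, which mesenchymal and contractile cells carry, rose. The smooth muscle and pericyte markers given below did not all go with them. Cspg4 rose, Mylk fell and the others had too few counts for the test. By staining, the study's text reports vimentin but not smooth muscle actin in KO stromal cells, while a figure legend lists both as increased. Vim (vimentin, the intermediate filament of mesenchymal cells and leukocytes) had WT counts of 13, 29 and 16.3 and KO counts of 170, 159 and 288 (0.901 ± 0.397 against 10.3 ± 3.51 CPM, log2 fold change 3.51, SE 0.353, adjusted p = 6.41e-05). Its promoter is the window above that holds the NF-κB consensus. Acta2 (smooth muscle actin, carried by myofibroblasts and vascular smooth muscle) had WT counts of 34.3, 56.1 and 27.6 and KO counts of 141.6, 331 and 315. KO replicate 1 was the lowest of the KO libraries for Acta2 and still well above WT (1.83 ± 0.682 against 13.2 ± 5.19 CPM, log2 fold change 2.84, SE 0.374, adjusted p = 0.000273).

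Per length, the order of the members changed between the genotypes. In WT the FPKM order was Fn1 (55.9 ± 16.9), Sparc (9.92 ± 6.57), Col12a1 (2.01 ± 0.0306), Col26a1 (1.82 ± 0.197) and Col20a1 (1.37 ± 0.243). In KO it was Sparc (10.8 ± 2.87), Col18a1 (9.4 ± 1.53), Tnc (7.49 ± 1.32), Acta2 (5.51 ± 2.27), Vim (5.43 ± 1.81), Fn1 (4.57 ± 0.385) and Col16a1 (4.02 ± 0.5). The ranges over 3 libraries did not overlap between Fn1 and Sparc in WT, whereas in KO they overlapped for each neighbouring pair from Sparc to Col16a1. No single KO library carried the rises. The highest KO library was replicate 1 for 3, replicate 2 for 5 and replicate 3 for 5 of the 13 members that rose. In WT the highest library for these 13 was replicate 2 for 7, replicate 3 for 5 and replicate 1 for 1.

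Markers of the other cells that a separated epithelium could carry were measured in the same libraries. Of all genes tested, 31.8% were higher and 30.2% lower, beside which the counts of markers can be set. These counts lean on the filter as well. Thy1, Cd34 and Pecam1 reached its minimum of 0.482 CPM in no WT library, so they could enter only by being higher in KO. Of 12 fibroblast and keratocyte markers, 4 were testable: Thy1 (WT counts of 2, 5 and 0, KO counts of 191, 84 and 159, log2 fold change 5.99), Cd34 and S100a4 (log2 fold change 3.10) were higher in KO, and Pdgfra was lower (WT counts of 275, 235 and 330, KO counts of 23, 28 and 21, log2 fold change -3.43). Their summed level was 13.49 to 17.76 CPM in WT, of which Pdgfra alone held 10.9 to 15.6 CPM, and 24.08 to 29.85 CPM in KO. The other 8 markers had too few counts for the test. Of 6 endothelial markers 2 were testable, and Pecam1 was higher in KO (WT counts of 1, 3 and 4, KO counts of 15, 14 and 16, log2 fold change 2.54). Tie1 was not called (log2 fold change 0.39, adjusted p = 0.279), Vwf had at most 15 counts, and the summed level was 2.016 to 2.462 CPM in WT and 3.21 to 3.90 CPM in KO.

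Of 7 smooth muscle and pericyte markers, Cspg4 was higher (log2 fold change 3.62) and Mylk lower (log2 fold change -2.45), and the other 5, with Tagln at no more than 12.5 counts and Myh11 and Rgs5 at no more than 3 and 1, were not testable. The summed level was 48.75 to 59.82 CPM in WT and 13.94 to 17.68 CPM in KO, and Mylk alone held 47.5 to 59.2 CPM of it in WT. Of 8 leukocyte markers 7 were testable, and 5 were higher and 1 lower in KO, beside 31.8% and 30.2% of all genes tested. Those that rose were Lyz2 (log2 fold change 7.11), Adgre1 (5.58), Ptprc (3.69), Csf1r (3.67) and Cd14 (1.2), Itgam fell (-0.60) and Cd68 was not called (0.09). Lyz2 and Adgre1 reached the filter's minimum in no WT library and could enter only by being higher in KO. The summed level was 268.7 to 339.4 CPM in WT and 195.0 to 273.6 CPM in KO, and Itgam alone held 233 to 307 CPM of it in WT and 137 to 202 CPM in KO. Of the Schwann cell and melanocyte markers, the pigment cell genes Pmel (log2 fold change -0.89, adjusted p = 0.0116) and Dct (-1.51, adjusted p = 0.00235) fell. Slc4a11, the corneal endothelium marker, was not called (log2 fold change -0.30, adjusted p = 0.159). Of 6 epithelial markers, Krt14 rose (log2 fold change 4.15) and 5 fell, among them Krt12 (-2.36) and Krt5 (-1.35), and their sum was 63190 to 68730 CPM in WT and 25990 to 30380 CPM in KO. The part of these cell types in the changes of the matrix genes was not tested. None of the markers analysed was at 0 in all 6 libraries. The listed markers Kera, Tcf21, Cdh5, Emcn and Cldn5 were not among those analysed.

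The machinery that folds and hydroxylates procollagen in the endoplasmic reticulum was read beside the collagens. Of 19 testable genes of this list 12 were higher, 2 lower and 5 not called, with a median log2 fold change of 0.79 (31.8% of all genes tested were higher and 30.2% lower). These counts and the median lean on the filter too. P4ha3, P3h1 and Creb3l1 reached its minimum of 0.482 CPM in no WT library, so they could enter only by being higher in KO. The 3 most abundant were P4hb (the shared subunit of prolyl 4-hydroxylase, log2 fold change 0.74, adjusted p = 0.00107), Ppib (cyclophilin B, 1.13, adjusted p = 3.43e-05) and Mia3 (TANGO1, which loads procollagen for export, 0.07, adjusted p = 0.491). Others, named after their values were seen, were the collagen chaperone Serpinh1 (WT counts of 270, 263 and 260, KO counts of 535, 593 and 505, log2 fold change 1.15, adjusted p = 4.14e-05), the prolyl 4-hydroxylase subunit P4ha2 (2.22) and the lysyl hydroxylase Plod2 (2.81). Creb3l1, a transcription factor of the endoplasmic reticulum membrane that acts on collagen genes, had WT counts of 1, 0 and 0 and KO counts of 157, 103 and 131 (ratio 422, counting interval 75.3 to 16700). P3h2 and Fkbp14 fell (log2 fold changes -0.68 and -2.92).

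**Figure D4:**
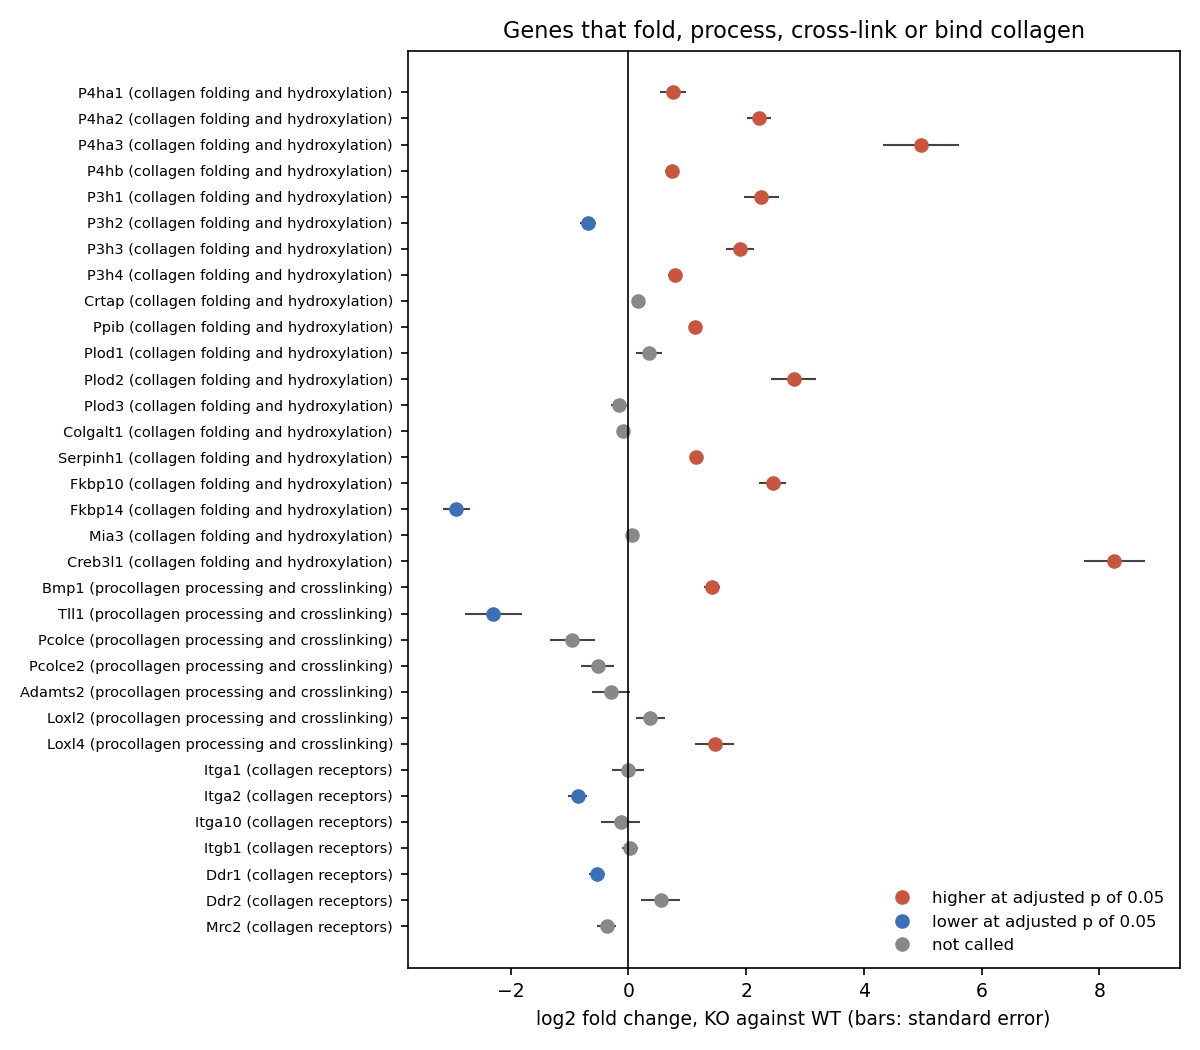
Log2 fold change of KO against WT (horizontal axis) with its standard error for the testable genes that fold and hydroxylate, process and crosslink, or bind collagen. Red points were higher, blue lower and grey not called at an adjusted p of 0.05; 12 of 19 folding genes are red and none of the 7 receptors is.

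The genes that act outside the cell were read in the same way, against 31.8% of all genes tested higher and 30.2% lower. Of 7 testable procollagen processing and crosslinking genes, 2 were higher, 1 lower and 4 not called (median log2 fold change -0.29). Bmp1, the C-propeptidase, rose (WT counts of 388, 363 and 295, KO counts of 986, 822 and 778, log2 fold change 1.42, adjusted p = 5.34e-05), while its enhancers Pcolce (log2 fold change -0.95, adjusted p = 0.0594) and Pcolce2 (-0.52, adjusted p = 0.141) were not called. Of 7 testable collagen receptors none was higher and 2 were lower, close to the share of all genes that were lower (median log2 fold change -0.13). Ddr1, a collagen-binding receptor tyrosine kinase of epithelia, was lower (log2 fold change -0.53, adjusted p = 0.00956), and the integrin subunit Itgb1 (0.03, adjusted p = 0.871) and the endocytic receptor Mrc2 (-0.37, adjusted p = 0.0642) were not called. Of 13 testable further matrix proteoglycans and glycoproteins, 7 were higher and 4 lower (median log2 fold change 0.60). Among these, Fbln2 and Thbs2 reached the filter's minimum in no WT library and could enter only by being higher in KO. Tgfbi, which binds collagen and integrins and is abundant in corneal epithelium, had WT counts of 30603, 34033 and 26557 and KO counts of 8938, 13907 and 10138 (log2 fold change -1.36, adjusted p = 0.000269), whereas Fbln1 (1.67, adjusted p = 0.000182) and Ltbp4 (0.60, adjusted p = 0.0163) were higher.

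The basement membrane genes, whose collagens were left out of the 46 by the rule, served as the neighbouring list. Of 19 testable genes 4 were higher, 10 lower and 5 not called, beside 31.8% higher and 30.2% lower of all genes tested, with a median log2 fold change of -0.35. The 3 most abundant all fell: Col17a1, the transmembrane collagen of hemidesmosomes (log2 fold change -1.96, adjusted p = 5.9e-06), Itgb4 (-1.12, adjusted p = 0.000306) and Itga6 (-0.47, adjusted p = 0.00822). The difference between this list and the 46 genes was not tested.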

How the data were processed

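RNA of separated corneal epithelium was sequenced in 6 libraries, 3 WT and 3 KO. The labels name an Illumina TruSeq kit, whereas the study's methods name ribosomal RNA depletion and a BGI instrument. Reads were cleaned with SOAPnuke, aligned with Bowtie2 2.2.5 and quantified with RSEM 1.2.12 by the authors (versions from the submitters' processing notes). Those notes name build mm9, but the coordinates in the table are those of GRCm38. The deposited table holds the expected count of RSEM, which need not be whole because shared reads are divided (38 of the 46 genes had whole counts in every library). It also holds deposited FPKM values, scaled by gene length and depth, and deposited TPM values, which were left unused. The authors' own log2 fold changes, DESeq2 p-values and group averages were not used. The sources used here do not say whether strand entered the counting, and genes that overlap can take each other's reads. In GENCODE M21, 20.1% of the exonic bases of Fbn1, 6.1% of Col9a3 and 2.5% of Fn1 overlap another gene.

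Groups came from titles and genotype labels. Rounded counts entered edgeR 4.0.16 in R 4.3.3 (TMM, filterByExpr, glmQLFit and glmQLFTest on genotype), and p-values of 13305 genes were adjusted together by Benjamini-Hochberg. The SE of a log2 fold change is its size over the root of its F statistic. Where WT or KO summed to few counts, the ratio of normalized totals has an exact 95% interval. No fold is given where both groups had at most 3 counts in every library. Named genes were Rela, every member (counts in each library where the mean reached 30 in the higher group), the 3 of highest mean CPM in each other list, and those said to be chosen after their values were seen, as were Cd34, Myh11, Rgs5, Ptprc, Adgre1, Csf1r, Cd14, Creb3l1, P3h2 and Fkbp14. P4ha3, P3h1, Fbln2 and Thbs2 were named only for their place under the filter. The members and lists were chosen with earlier results of these data known. Ccn1, Ccn2 and Ccn4 were found under older symbols. Col11a1, Col9a1, Col22a1, Col13a1, Ogn, Epyc, Kera, Tcf21, Cdh5, Emcn and Cldn5 were not analysed here, and the values of a further listed marker are not reported here. As alternatives, the normalization (RLE, library totals alone, or TMM with the 20 most abundant genes left out), the filter (none, or a mean count of at least 50) and the fit (robust, DESeq2 1.42.0, limma 3.58.1 on log2(FPKM + 1) and log2(FPKM + 0.1), the replicate number as a block) were changed, and each library was left out in turn. Scripts were tested on simulated data. Plots used matplotlib 3.10.9.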

Additional observations from a re-analysis of the deposited data

How the results depend on the processing

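Of the 20 members called, 18 kept their call and sign in every alternative that gave a value, and Col1a1 and Col9a3 are the exceptions. The counts of 13 higher and 7 lower became 7 and 4 with a mean count of at least 50, which left 12 members to test. With no filter, where 46 members were tested, they became 19 and 7. Of the 17827 genes then tested 8714 were called, and 53.0% of these calls were higher. The members added in this way had at most 22 counts in any library. At the study's threshold the count of lower members was 2, and it was 4 with DESeq2, 1 on log2(FPKM + 1) and 1 whichever library was left out (range 1 to 1), where Col12a1 and Fn1 were the 2. The count of higher members there was 7, was 10 with DESeq2 and ranged from 4 to 6 over the libraries left out, with 4 without WT replicate 1 and 4 without KO replicate 3. Over all genes tested, 1543 were higher at that threshold and 987 on log2(FPKM + 1). Total counts only moved the median log2 fold change of all genes from 0.01 to -0.09.

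The shared replicate numbers do not pair the samples: the animals differ, and the correlations of same-numbered deviations were 0.0345, -0.00998 and 0.0606. With the replicate number as a block, 13 members were higher and 6 lower, with 1 lower at the study's threshold, and Col9a3 was not called (adjusted p = 0.0732). Of all 13305 genes tested, 8083 were called with the block, and 51.3% of these calls were higher.

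Among the members and other named genes the sign turned only for genes that were not called. Col5a2 was at -8.02e-05 on log2(FPKM + 1) and -0.00254 on log2(FPKM + 0.1), and from -0.257 to 0.391 with 1 library left out. Sparc ranged from -0.0426 to 0.922 with 1 library left out. With total counts only, log2(FPKM + 1) and log2(FPKM + 0.1), Mia3 was at -0.0215, -0.0244 and -0.0259, Itgb1 at -0.0622, -0.0828 and -0.0856, and Cd68 at -0.00799, -0.0204 and -0.0215. With 1 library left out, Itgb1 ranged from -0.0709 to 0.176 and Cd68 from -0.0337 to 0.223. The cause was not tested. Depth limits the 24 untested members, none of which had more than 22 counts in a library.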
